A study of Mus musculus with 18 samples.

Results

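The 9 genes Mbp, Mog, Mag, Mobp, Cnp, Cldn11, Ugt8a, Ermn and Opalin were followed here through the frontal cortex of 18 mice. They were chosen by name from the deposited counts, as genes that mature oligodendrocytes use to build and keep myelin, and make up 9 of the 55487 genes counted. The 6 wild type mice (WT), 6 APP/PS1 mice and 6 APP/PS1/FTnKO mice were 9-10 months old, with 3 females and 3 males in each genotype. APP/PS1 mice carry a mutant APP (APPswe) and another transgene, both driven by the Prnp promoter, and form amyloid plaques. APP/PS1/FTnKO mice carry the same transgenes and lose the β-subunit of farnesyltransferase (Fntb), an enzyme that attaches a farnesyl lipid to proteins, through a CaMKIIα-Cre that acts in forebrain neurons after birth. By the study's methods, the mice without Cre also carry the floxed Fntb alleles, whereas the series text names the WT mice C57BL/6J. The Cre is not directed at oligodendrocytes, and the RNA came from whole tissue, in which fewer cells of a type and less RNA per cell cannot be told apart.

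The total counts per mouse were 15925432 to 21030935. WT mouse 19622 (mice are named by the number in their labels) stood apart from every other mouse, with a distance of at least 4.14 on the log2 scale over the 500 leading genes, against at most 2.7 between any other mice. It was therefore left out of the fits, except where stated, and is described last, so that 5 WT, 6 APP/PS1 and 6 APP/PS1/FTnKO mice entered the comparisons. As a check of the labels, Fntb had 7.84 to 14.7 CPM (counts scaled to the same total in every library) in APP/PS1/FTnKO mice, while APP/PS1 mice had 14.2 to 32.1 and WT mice 14.1 to 32.2, and its difference of -0.77 ± 0.26 (log2, SE) against APP/PS1 did not pass the edgeR test (adjusted p = 0.251). App rose by 0.89 ± 0.095 and Prnp by 1.58 ± 0.080 (log2, SE) in APP/PS1 over WT mice (edgeR, adjusted p = 6.7e-05 and 2.71e-09). The RNA integrity number (RIN), a measure of RNA degradation that is highest in intact RNA, was 8.5 to 8.8 in WT mice, whereas APP/PS1 mice had 7.7 to 8.7 and APP/PS1/FTnKO mice 7.6 to 8.7.

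Myelin is the compacted membrane that oligodendrocytes wrap around axons, and it is rich in the lipid galactosylceramide and in a small set of proteins that hold its layers together. Mbp encodes myelin basic protein, which binds the inner faces of the membrane and is needed for compaction, and Mobp encodes another basic protein of compact myelin. Cnp encodes a phosphodiesterase of non-compact myelin whose protein carries a prenyl lipid at its end. Mag encodes an adhesion protein of the membrane next to the axon, and Mog an immunoglobulin-type protein of the outermost layer. Cldn11 encodes the claudin of the tight junctions between myelin layers. Ugt8a encodes the enzyme that makes galactosylceramide. Ermn encodes ermin, a cytoskeletal protein of myelinating cells, and Opalin a membrane protein found in mature oligodendrocytes. Transcription of such genes is driven by Sox10, Olig2 and Myrf.

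The bases just upstream of the start site are shown for 4 of the 9 genes, Mog, Cldn11, Mobp and Opalin. Mog and Cldn11 had the highest correlation between mice outside the pair of Mbp and Mobp. Opalin was the one gene of the 9 that in mouse 19622 lay within the range of the other WT mice. The part of these sequences in the levels of the genes was not tested. A promoter sequence was at hand for 8 of the 9 genes (RefSeq, GRCm38.p6). They are written 5′ to 3′ along the gene, with bases in capitals where a script found ACAAAG, a core that Sox proteins bind, or CTGGNAC, the core described for Myrf, on either strand. No base in an exon of the GENCODE M21 annotation is shown, and Mobp is therefore cut short at its 3′ end.
Mog, chr17:37023399-37023648, - strand: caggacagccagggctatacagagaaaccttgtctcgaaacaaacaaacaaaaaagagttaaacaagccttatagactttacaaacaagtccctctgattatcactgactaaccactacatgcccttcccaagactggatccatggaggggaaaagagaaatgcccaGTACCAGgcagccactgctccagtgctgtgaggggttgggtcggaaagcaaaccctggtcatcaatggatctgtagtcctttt
Cldn11, chr3:31149670-31149919, + strand: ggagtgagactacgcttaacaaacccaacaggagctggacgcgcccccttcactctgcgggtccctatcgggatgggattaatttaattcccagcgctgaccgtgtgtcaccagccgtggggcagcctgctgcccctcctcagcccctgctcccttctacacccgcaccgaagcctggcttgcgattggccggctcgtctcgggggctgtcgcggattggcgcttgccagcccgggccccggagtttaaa
Mobp, chr9:120149492-120149706, + strand: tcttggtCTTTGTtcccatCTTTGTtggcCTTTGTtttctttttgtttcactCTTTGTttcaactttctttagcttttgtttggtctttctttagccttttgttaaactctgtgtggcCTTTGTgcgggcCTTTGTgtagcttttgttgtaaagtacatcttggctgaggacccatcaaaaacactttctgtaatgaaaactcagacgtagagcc
Opalin, chr19:41077114-41077363, - strand: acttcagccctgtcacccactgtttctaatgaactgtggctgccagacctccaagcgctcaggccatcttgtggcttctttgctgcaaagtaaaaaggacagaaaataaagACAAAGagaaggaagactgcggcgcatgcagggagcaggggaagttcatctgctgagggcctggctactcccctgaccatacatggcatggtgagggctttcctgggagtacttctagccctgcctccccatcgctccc
Within 250 bases before the start, Mobp held 6 copies of ACAAAG, all read on the opposite strand as CTTTGT, and Opalin held 1, beginning 139 bases before the start. Mog held 1 CTGGNAC, 83 bases before the start, again on the opposite strand, and Cldn11 held neither. The 8 genes have 10 promoters in RefSeq, 3 of them of Mag, 2 of which overlap each other. Of the 10, 5 held ACAAAG, 4 held CTGGNAC and 5 held CANNTG, the core of the sites that Olig2 binds, against 16.5%, 16.1% and 66.2% of all 32851 promoters of that length. The 2 overlapping promoters of Mag hold the same matches of ACAAAG and CTGGNAC, which are thus counted 2 times. By gene, 4 of 8 held ACAAAG, 3 held CTGGNAC and 4 held CANNTG. The 3 motifs were searched on both strands, CANNTG reads the same on both, and matches of different motifs may share bases. A match is a run of letters and not a site of binding.

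All 9 genes passed the filter on low counts, with 236 to 607 counts per mouse for Opalin, the lowest, and 27925 to 70132 for Mbp, the highest. Counting error at the lowest count was 6.51% for Opalin and under that for the other 8. Per length of exon, Mbp was the highest at 317 ± 65.3 CPM per kilobase of exon (SD, n = 17), followed by Mobp at 116 ± 28.3, Cnp at 78 ± 13.3, Cldn11 at 58.7 ± 15.3 and Mag at 41.4 ± 6.63. Mog stood at 28.9 ± 6.71, Ermn at 14.5 ± 2.58, Ugt8a at 10.6 ± 1.99 and Opalin at 7.42 ± 1.74 (SD, n = 17). The order held in 17 of 17 mice between all neighbours except the last, where Ugt8a was above Opalin in 15 of 17. Of the 9, 3 share exon sequence with another gene, Cnp 154 bases with Dnajc7 and Ermn 237 bases with Galnt5, both on the opposite strand, and Mobp 79 bases with Gm38642 on the same strand. Reads in these stretches are uncertain, for Cnp and Ermn since the strand setting of the counting is not given, and for Mobp whatever that setting was. Cnp lies at chr11:100574904-100591729, Ermn at chr2:58045113-58052864 and Mobp at chr9:120149707-120181484 (GRCm38, GENCODE M21).

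**Figure D1:**
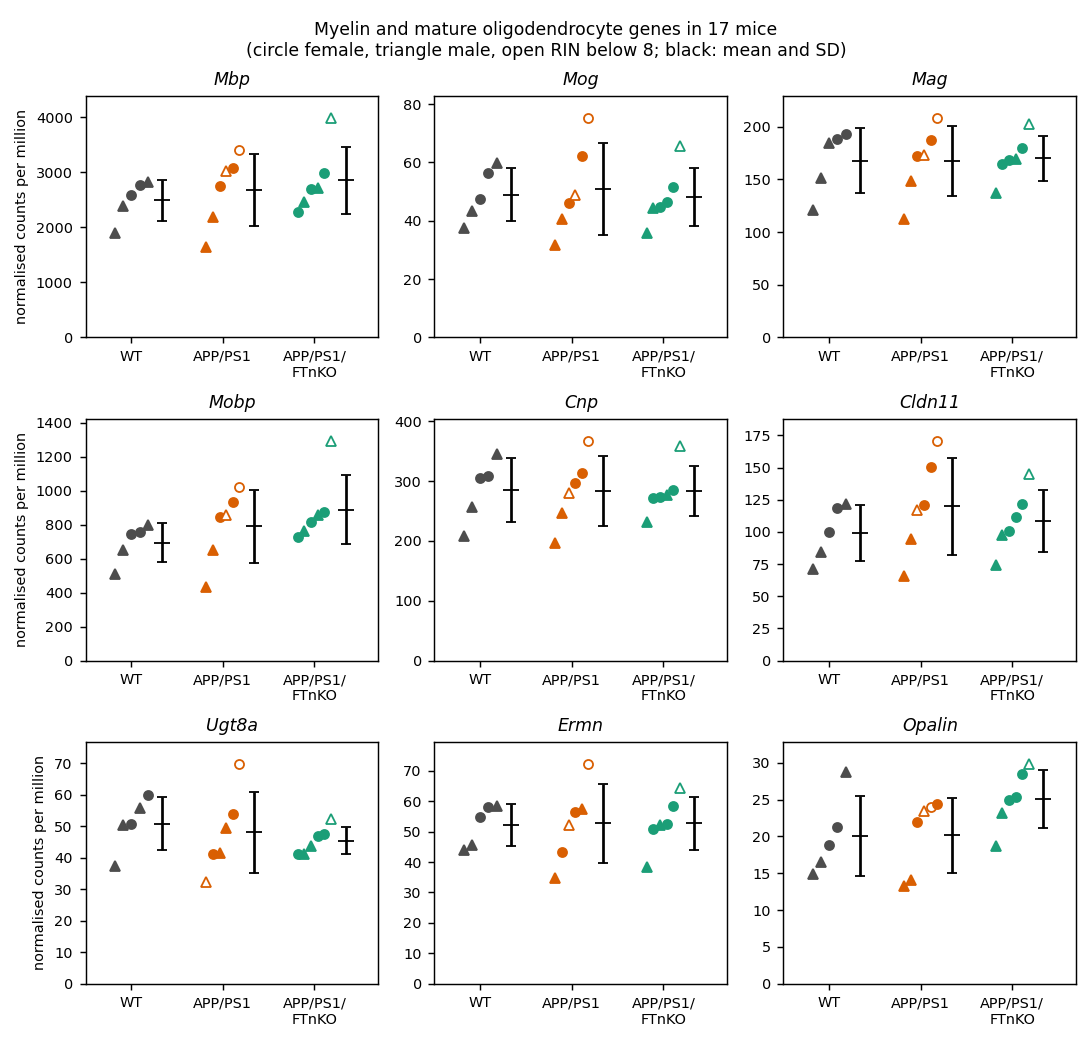
CPM of each of the 9 genes in 17 mice by genotype (circles female, triangles male, open symbols a RIN below 8, black bars the mean and SD). The 3 genotypes overlap for every gene, and the 3 open symbols lie above the median of their group for Mbp, Mobp and Opalin.

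The comparison of APP/PS1 with WT mice asks what the transgenes and their plaques change. None of the 9 genes passed the test, where 1.5% of all 17414 genes tested did (edgeR, false discovery rate 0.05), and 0 of 9 had an unadjusted p under 0.05, where 2431 of all 17414 did. Mbp in the 5 WT mice was 1895, 2388, 2581, 2764 and 2829 CPM, and in the 6 APP/PS1 mice it was 1641 at the lowest, 2893 at the median and 3399 at the highest. The APP/PS1 mice thus reached below and above the WT mice, and the fold was 1.06 (95% interval 0.831 to 1.36). Cldn11 had the largest difference. It was 70.9, 84.4, 99.6, 119 and 121 CPM in the WT mice and 65.7, 119 and 171 CPM (lowest, median, highest) in APP/PS1 mice, a fold of 1.16 (0.886 to 1.53) with an adjusted p of 0.631 by edgeR. Again the groups overlapped, with the lowest mouse and the highest mouse both in APP/PS1. With the RIN in the fit all 4 genes that were higher in APP/PS1 turned direction, Mbp from 0.088 to -0.27, Cldn11 from 0.22 to -0.14, Mobp from 0.17 to -0.22 and Mog from 0.013 to -0.35 (log2), and in the 14 mice whose RIN was 8 or more Mbp was at -0.088.

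The other genes of the myelin membrane had intervals that include 0. The difference was 0.17 ± 0.19 for Mobp, 0.013 ± 0.18 for Mog, -0.031 ± 0.12 for Mag and -0.032 ± 0.14 for Cnp (log2, SE). The lipid enzyme Ugt8a had -0.10 ± 0.14, Ermn -0.0020 ± 0.15 and Opalin -0.025 ± 0.18 (log2, SE). In 4 of 9 genes APP/PS1 was the higher and in 5 the lower. The median of the 9 was -0.0020 and that of all genes tested -0.0023 on the log2 scale. The 95% intervals of the 9 genes lay between folds of 0.756 and 1.53, and the width of these intervals sets what could be seen. The groups did not overlap for 0 of the 9 genes, against 2.4% of all genes tested. The coefficient of variation of Mbp was 15.1% over the WT mice and 24.3% over the APP/PS1 mice, and that of Ugt8a 16.6% and 27%, and whether the spread differed was not tested.

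The comparison of APP/PS1/FTnKO with APP/PS1 mice asks what the loss of Fntb from forebrain neurons changes on the plaque background. Only the former mice carry the Cre, so that its presence and the loss of Fntb cannot be told apart. None of the 9 genes passed, where 0.327% of all genes tested did (edgeR), and 0 of 9 had an unadjusted p under 0.05, where 2003 of all 17414 did. Opalin had the largest difference. It was 13.3, 22.7 and 24.4 CPM (lowest, median, highest) in the 6 APP/PS1 mice and 18.8, 25.1 and 29.9 CPM in the 6 APP/PS1/FTnKO mice, so that the ranges overlapped between 18.8 and 24.4. The fold was 1.25 (95% interval 0.983 to 1.59) with an edgeR adjusted p of 0.478. Mobp, at 433, 851 and 1021 CPM in APP/PS1 and 729, 836 and 1294 CPM in APP/PS1/FTnKO mice, had a fold of 1.14 (0.883 to 1.47). For Mobp the medians lie the other way from the fold, and the highest value belongs to APP/PS1/FTnKO mouse 16974, the mouse with the lowest RIN (7.6). Without that mouse the difference of Mobp was 0.030 in place of 0.19 (log2).

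Mbp differed by 0.11 ± 0.16, Mag by 0.040 ± 0.12, Cnp by 0.013 ± 0.13 and Ermn by 0.0053 ± 0.14 (log2, SE). Mog, Cldn11 and Ugt8a had values below 0, of -0.058 ± 0.17, -0.11 ± 0.18 and -0.070 ± 0.13 (log2, SE). The median of the 9 was 0.013, beside -0.0016 over all genes tested (log2). Ranges without overlap were found for 0 of 9, against 0.97% of all genes.

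Set against WT, APP/PS1/FTnKO mice had none of the 9 genes called, where 3.87% of all genes tested passed (edgeR), and 0 of 9 had an unadjusted p under 0.05, where 3852 of all 17414 did. Both comparisons with WT share the 5 WT mice, and both comparisons of APP/PS1/FTnKO its 6 mice. Mobp had the largest difference. The WT mice had 511, 654, 746, 757 and 797 CPM, below the median of the APP/PS1/FTnKO mice in all 5, and the fold was 1.28 (95% interval 0.979 to 1.67, edgeR adjusted p = 0.267). Without APP/PS1/FTnKO mouse 16974 its log2 difference was 0.18 in place of 0.36. The 5 WT values of Opalin were 14.9, 16.5, 18.8, 21.3 and 28.7 CPM, of which 4 lay below the APP/PS1/FTnKO median, and its fold was 1.23 (0.953 to 1.59). The WT mouse with 28.7 CPM, 19101, was also the highest of its group for Mbp, Mog, Mobp, Cnp, Cldn11 and Ermn. For Ugt8a the values in WT were 37.4, 50.3, 50.7, 55.7 and 59.8 CPM and in APP/PS1/FTnKO mice 41.1, 45.2 and 52.2 CPM (lowest, median, highest), a fold of 0.886 (0.721 to 1.09). The remaining 6 genes lay between -0.045 and 0.19 on the log2 scale, and the median of the 9 was 0.0093, beside 0.0053 over all genes. For 0 of 9 genes the groups did not overlap, against 5.6% of all genes.

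The call was the same in 27 alternatives to each genotype comparison, among them DESeq2 and limma-voom, none of which called any of the 9 genes. The smallest adjusted p was 0.307 for APP/PS1 against WT (Cldn11, without APP/PS1 mouse 19744), 0.0645 for APP/PS1/FTnKO against APP/PS1 (Opalin, with the RIN in the fit) and 0.0702 for APP/PS1/FTnKO against WT (Opalin, without WT mouse 19101). Signs were less fixed than calls.

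**Figure D2:**
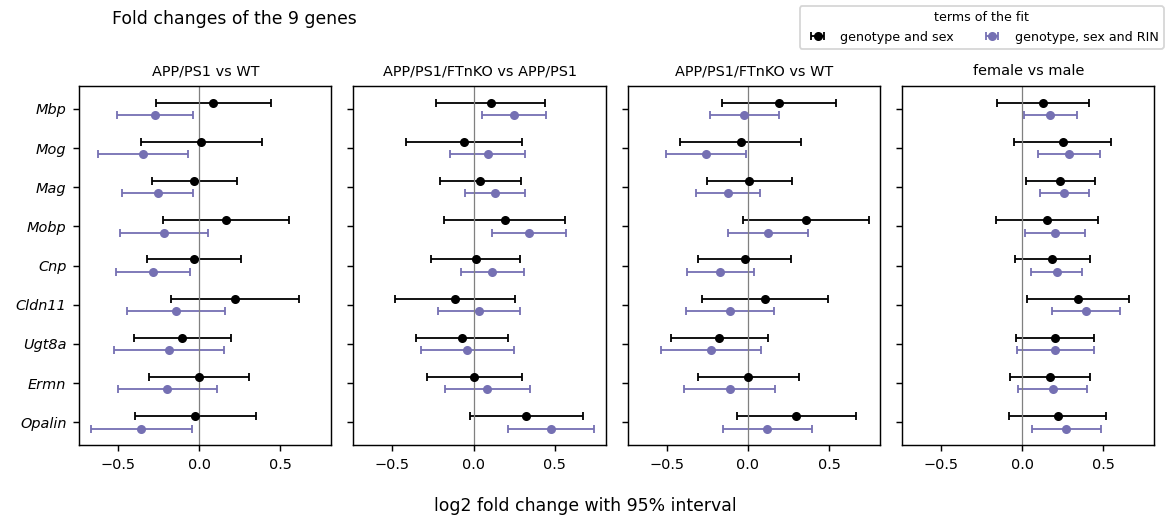
Log2 fold changes of the 9 genes with 95% intervals, by edgeR, in the 3 genotype comparisons and between the sexes, with genotype and sex in the fit (black) and with the RIN added (purple). With the RIN added, all 9 genes are below 0 in APP/PS1 against WT, while none passes the test in either fit.

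The RIN moved with these genes. After the genotype and sex means were removed, Pearson's r with the RIN over 17 mice was -0.84 for Mbp, -0.81 for Mobp, -0.79 for Mog, -0.76 for Cldn11, -0.75 for Cnp, -0.74 for Opalin, -0.73 for Mag, -0.56 for Ermn and -0.20 for Ugt8a. These 9 relations were computed after seeing the data. By a two-sided permutation test, 8 of 9 passed after Benjamini-Hochberg adjustment (adjusted p = 0.00027 for Mbp, 0.0213 for Ermn and 0.453 for Ugt8a), and 7 of 9 by Spearman's rho, which was -0.79 for Mbp, -0.47 for Ermn (adjusted permutation p = 0.0642) and -0.20 for Ugt8a. Without the 2 mice farthest in RIN, 16974 and 16975, r lay between -0.74 and -0.34. Among all genes tested, 14.4% had an r of -0.5 or below and 14.9% of 0.5 or above. The part of the RIN in the levels of these genes was not tested.

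With the RIN as a further term in the fit, the 9 genes ranged from -0.36 to -0.14 in APP/PS1 against WT, all lower. Of the 9, 5 had an unadjusted p under 0.05, beside 1463 of all 17414 genes in that fit, and none was called (smallest edgeR adjusted p = 0.421, Mog), where 0.482% of all genes were. In APP/PS1/FTnKO against APP/PS1 mice 8 of 9 were then higher, with Opalin at 0.48 ± 0.12 (log2, SE) and Mobp at 0.34 ± 0.11, again with none called where 1.5% of all genes were, and 3 of 9 had an unadjusted p under 0.05, beside 2793 of all genes. In APP/PS1/FTnKO against WT mice 7 of 9 were lower, from -0.26 to 0.12, with 1 of 9 and 3054 of all genes at an unadjusted p under 0.05 and 0 of 9 and 2.23% of all genes called. No WT mouse had a RIN below 8.5, and in the 14 mice whose RIN was 8 or more, where r with the RIN ran from -0.66 (Mbp) to -0.0095 (Ugt8a), none of the 9 genes was called either.

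**Figure D3:**
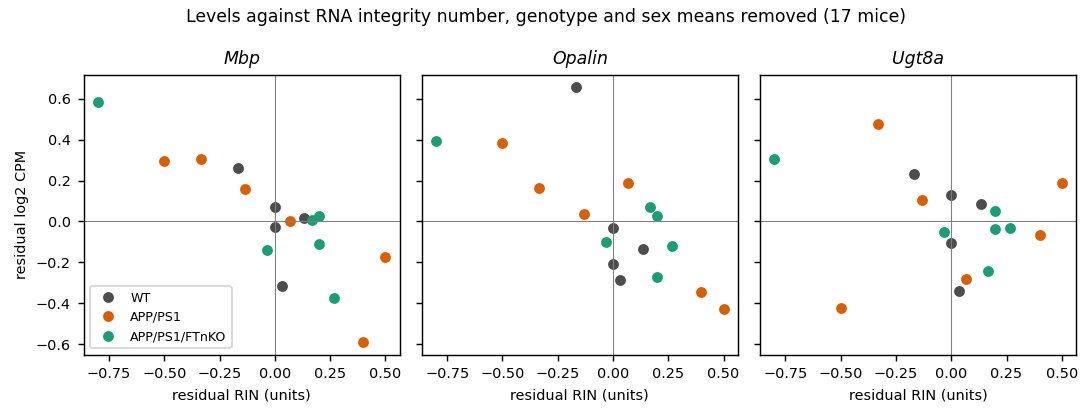
Residual log2 CPM of Mbp, Opalin and Ugt8a against the residual RIN in 17 mice, genotype and sex means removed from both axes (grey WT, orange APP/PS1, green APP/PS1/FTnKO). Mbp falls from upper left to lower right with an r of -0.84 and Opalin with -0.74, while Ugt8a shows no such line (r of -0.20).

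Between the sexes, all 9 genes had values above 0 for females minus males, from 0.13 (Mbp) to 0.34 (Cldn11) on the log2 scale with genotype in the fit, and none passed the test, where 0.0689% of all genes tested did (edgeR). Unadjusted p values under 0.05 were found for 2 of 9, Mag and Cldn11 (edgeR adjusted p = 0.667 and 0.695), where 1166 of all 17414 genes had one. The median of the 9 was 0.20 and that of all genes -0.0011. Single mice moved these values. The difference of Mbp was 0.046 without APP/PS1 mouse 19744 and 0.23 without APP/PS1/FTnKO mouse 16974, and that of Mobp 0.054 and 0.26 (0.15 with both), while all 9 stayed above 0 with any mouse left out. Of 51 other oligodendrocyte genes, followed below, 47 were also above 0 and 4 below (median 0.16, log2, 8 at an unadjusted p under 0.05). Over all 17414 genes, 8597 were above 0. Some lists of markers of other cells and regions also had all their values on one side of 0, with 0 genes called in any list. The 6 excitatory neuron markers were all below 0 for females minus males (median -0.16, log2, 2 at an unadjusted p under 0.05) and the 7 striatal markers all above 0 (median 0.45, 7 of 7 at an unadjusted p under 0.05). The 6 markers of plaque-associated microglia were all above 0 (median 0.42, 1 at an unadjusted p under 0.05) and the 4 olfactory bulb markers tested all below 0 (median -0.63, 0 at an unadjusted p under 0.05). The part of these lists in the values of the 9 genes was not tested. Cldn11 was 99.6 and 119 CPM in the 2 WT females and 70.9, 84.4 and 121 CPM in the 3 WT males. In APP/PS1 mice every female (121 to 171 CPM) was above every male (65.7 to 117 CPM), whereas in APP/PS1/FTnKO mice females at 101 to 122 CPM lay within the males at 74 to 145 CPM. With the RIN in the fit the sex difference of Cldn11 was 0.39 ± 0.10 (log2, SE), and 7 of 9 genes had an unadjusted p under 0.05, beside 1663 of all 17414 in that fit. None of the 9 was called (smallest edgeR adjusted p = 0.238), where 0.0861% of all genes were.

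Whether the sex difference itself differed between genotypes was tested by an interaction, for which 0% of all genes were called in each of the 3 contrasts, and 0 of the 9 genes. The largest of these 27 values for the 9 genes was that of Mobp for APP/PS1/FTnKO against APP/PS1, where females minus males in the former less that in the latter was -0.80 (95% interval -1.46 to -0.14, log2). Mobp was 846 to 1021 CPM in APP/PS1 females, 433 to 856 in APP/PS1 males, 729 to 876 in APP/PS1/FTnKO females and 765 to 1294 in APP/PS1/FTnKO males. This value had an edgeR adjusted p of 1 and was called only without the filter on low counts (-0.80 ± 0.18, adjusted p = 0.0302), where 0.13% of all 33121 genes in that fit were called. With the filter, 578 of all 17414 genes had an unadjusted p under 0.05, and 1 of the 9 did.

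Of 51 further oligodendrocyte genes in 4 lists, 0 were called in any of the 3 genotype comparisons by edgeR, with 2, 1 and 5 at an unadjusted p under 0.05 in APP/PS1 against WT, APP/PS1/FTnKO against APP/PS1 and APP/PS1/FTnKO against WT, beside 2431, 2003 and 3852 of all 17414 genes. DESeq2 called 1 of them, Nfasc, in APP/PS1/FTnKO against WT (-0.14 ± 0.045, log2, SE, adjusted p = 0.0247), beside 8.41% of all genes to which it gave an adjusted p, where edgeR gave -0.14 ± 0.046 with an adjusted p of 0.0866. Nfasc encodes neurofascin, an adhesion protein of the paranode that neurons express as well.

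Among the 8 transcription factors, Myrf, which switches on myelin genes, differed by 0.0017 ± 0.13 in APP/PS1 against WT and 0.13 ± 0.13 in APP/PS1/FTnKO against APP/PS1 mice, and Sox10 by 0.078 ± 0.16 and -0.017 ± 0.15 (log2, SE). The WT mice had 13.9 to 20.5 CPM of Olig2, the APP/PS1 mice 13.8 to 22.1 and the APP/PS1/FTnKO mice 16.8 to 34.8. Against APP/PS1 the difference of the latter was 0.29 ± 0.16 (edgeR adjusted p = 0.506), and it was called in 1 alternative, with the RIN in the fit (0.42 ± 0.090, edgeR adjusted p = 0.0291). The 9 myelin lipid genes had 0 calls, with Fa2h, which makes the 2-hydroxy fatty acids of myelin lipids, at 0.0060 ± 0.13 and Aspa, which releases acetate from N-acetylaspartate, at 0.084 ± 0.17 in APP/PS1 against WT (log2, SE). Of the structural and mature genes always followed, Mal had -0.046, Hapln2 -0.013 and Trf 0.21 in APP/PS1 against WT, and 0.00045, 0.22 and -0.070 in APP/PS1/FTnKO against APP/PS1 mice (log2). In the latter comparison, with each mouse left out, Hapln2 ran from 0.070 to 0.35 and Trf from -0.19 to -0.0047.

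The 7 precursor markers all had values above 0 in APP/PS1 against WT, with 0 called and a median of 0.18 (log2). Pdgfra, the growth factor receptor of precursors, ranged over 50.3 to 70.8 CPM in WT mice and 54.05 to 71.9 CPM in APP/PS1 mice, and Cspg4, the NG2 proteoglycan, over 24.7 to 34.3 and 25.5 to 37.3 CPM. Of 6 genes of newly formed oligodendrocytes, 0 were called in the 3 comparisons. In APP/PS1 against WT 6 of 6 were above 0 (median 0.14, log2), in APP/PS1/FTnKO against APP/PS1 3 of 6 and in APP/PS1/FTnKO against WT 4 of 6. In contrast, of 5 genes that were described in oligodendrocytes near plaques, 2 rose in both comparisons with WT. Of all genes tested, 1.5% were called in APP/PS1 against WT and 3.87% in APP/PS1/FTnKO against WT. C4b, a complement component, had 25.9 to 40.4 CPM in WT mice, whereas APP/PS1 mice had 70.4 to 453 and APP/PS1/FTnKO mice 85 to 319. Neither group overlapped WT, where 2.4% and 5.6% of all genes tested had no overlap. The fold of C4b was 7.53 in APP/PS1 over WT (edgeR adjusted p = 0.00042). Serpina3n, a protease inhibitor, had 13.5 to 19 CPM in WT mice, whereas APP/PS1 mice had 22.8 to 74.9 and APP/PS1/FTnKO mice 23.8 to 60.1, a fold of 3.17 in APP/PS1 over WT (edgeR adjusted p = 0.00189). Both genes are also made by reactive astrocytes, and in the same comparison 6 of 6 markers of plaque-associated microglia and 1 of 7 astrocyte markers rose. APP/PS1/FTnKO set against APP/PS1 gave 0 calls among the 5.

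The levels of the 9 genes varied between mice, and how this spread compares with that of all genes was not tested. The highest mouse had 1.85 (Mag) to 2.99 times (Mobp) the CPM of the lowest. APP/PS1 mouse 19744 was the lowest for 7 of 9 genes, and the highest was APP/PS1 mouse 19554 for 6 of 9 and APP/PS1/FTnKO mouse 16974 for 3 of 9. The mean of the 9 residual log2 values, genotype and sex removed, ran from -0.46 in mouse 19744 and -0.29 in WT mouse 19718 to 0.36 in WT mouse 19101 and 0.49 in mouse 16974.

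Over the 36 pairs of genes, Pearson's r of these residuals had a median of 0.82 and a range of 0.13 to 0.99, and 31 pairs passed after Benjamini-Hochberg adjustment (two-sided permutation test, 17 mice, 100000 resamples). The median Spearman's rho was 0.755, with 32 pairs passing. The RIN was not removed from these residuals, and no share of passing pairs was computed for all genes. Mbp and Mobp, both basic proteins of compact myelin, had an r of 0.99 and a rho of 0.95, and Mog and Cldn11 had 0.98 and 0.97. Cnp and Mag had 0.96 and 0.96. The adjusted permutation p of these 3 pairs was 2.77e-05, which rests on the smallest p that the resamples can give. Leaving out the 2 mice farthest from the median of the former gene left a median r of 0.75 over the pairs, with 10 of 36 below 0.5, where 5 of 36 were with all 17 mice.

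Ugt8a departed from the rest. Its r with the other 8 lay between 0.13 (Opalin) and 0.60 (Cnp), and 3 of 8 passed, against 7 or 8 of 8 for each of the other genes. All 5 pairs that did not pass hold Ugt8a, with Mbp, Mag, Mobp, Cldn11 and Opalin (adjusted permutation p of 0.0518 to 0.614 by Pearson). Whether the r of Ugt8a differs from that of the others was not tested. In APP/PS1 mouse 16975, which has a RIN of 7.7, Ugt8a was at its lowest of all 17 mice, 32.4 CPM, whereas Mbp in the same mouse was 3033 CPM, above the median of its group.

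**Figure D4:**
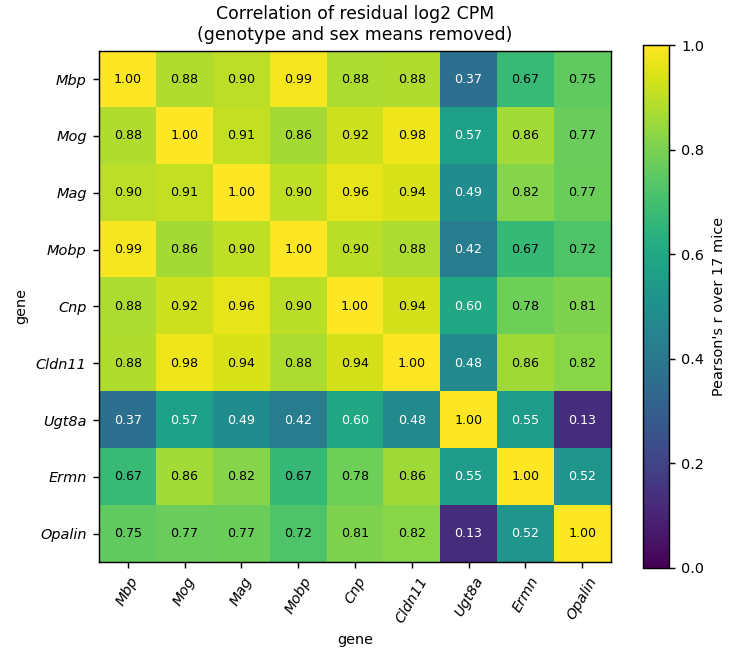
Pearson's r between the residual log2 CPM of the 9 genes over 17 mice, genotype and sex means removed. The row of Ugt8a runs from 0.13 to 0.60 and holds all 5 values below 0.5, beside a median of 0.82 over all 36 pairs.

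Ranked by r with the mean residual of the 9 genes over the 17 mice, as a description, the 10 most alike of the other genes tested included Ikzf3 (0.95), Arhgef10 (0.95), Slc44a1 (0.95), Septin4 (0.95), Erbin (0.94), Tmem63a (0.94), Ppp1r14a (0.94), Abca8a (0.94) and Tmem88b (0.93). Of these 9, 4 are in the 4 lists of other oligodendrocyte genes. In those lists 43 of 51 genes had an r over 0.5, beside 11.6% of all genes tested, with Nkx6-2 at 0.92, Olig2 at 0.91 and Sox8 at 0.18. The precursor markers had a median r of 0.57. Markers of excitatory neurons ran the other way, with an r below -0.5 for 5 of 6, among them the vesicular glutamate transporter Slc17a7 at -0.90 and Tbr1, of deep cortical layers, at -0.86, beside 12.04% of all genes. All these points share the libraries and their scaling by the normalized library total. Slc17a7 itself fell in APP/PS1/FTnKO against WT mice, by -0.46 ± 0.12 (log2, SE, edgeR adjusted p = 0.0396), the only one of 6 excitatory markers called, and the summed excitatory markers were 3205 to 4948 CPM in these mice and 4464 to 6207 CPM in WT mice, with 3855 to 6005 CPM in APP/PS1. The part of such shifts in the levels of the 9 genes was not tested.

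WT mouse 19622 was set beside the other WT mice with all 18 mice scaled together. Of the 9 genes, 8 were above all 5 other WT mice, where 38.9% of all 17285 genes tested were, and 7 above all 17 other mice, where 28.6% were. Mbp was 5653 CPM against 1906 to 2819 in the other WT mice, Mobp 1524 against 514 to 795, and Ermn 133 against 44.1 to 58.2. Ugt8a stood out most, at 146 CPM against 37.6 to 59.7, or 2.88 times the WT median. Cldn11 was 144 CPM against 71.3 to 121. Opalin, at 17 CPM, lay within the 15 to 28.6 CPM of the others, and of the 7 precursor markers 4 lay above the other WT mice, among them Vcan (34.9 CPM against 24.5 to 31.2), and 3 below, among them Pdgfra (35.7 against 50.2 to 70.6). Of the 51 other oligodendrocyte genes 45 were above the other WT mice.

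Markers of frontal cortex were low or nearly absent in the same mouse. Camk2a was 132 CPM against 3137 to 4396 and Tbr1 0.252 against 91.9 to 138 CPM. All 7 cerebellar markers were above the other WT mice, with Gabra6 at 400.2 CPM against 0 in all 5 and Cbln1 at 492 against 3.88 to 6.25 CPM, and Hoxb5, a gene of hindbrain and spinal cord, at 17.7 CPM against 0. Its RNA thus goes against the labelled tissue, whereas in the other 17 mice the cortical markers were present. With it in the fit, the difference of Mbp in APP/PS1 against WT mice was -0.16 in place of 0.088 (log2), and none of the 9 genes was called in any comparison.

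**Figure D5:**
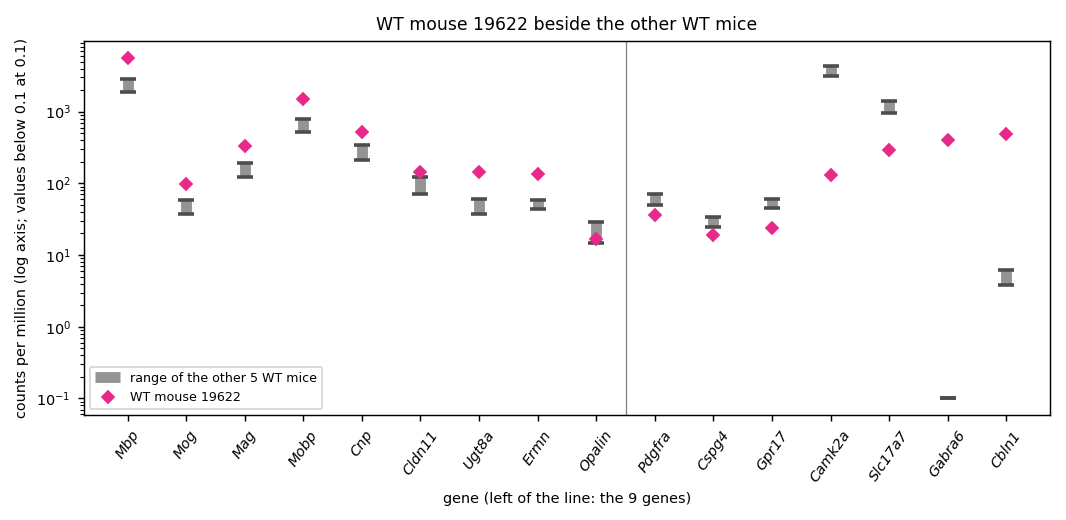
CPM, on a log axis, of the 9 genes and 7 other markers in WT mouse 19622 (diamonds) and the range of the other 5 WT mice (grey). The diamonds lie above the range for every one of the 9 genes except Opalin, and Gabra6 and Cbln1 are present where the other mice have little or none.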

How the data were processed

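Stranded mRNA libraries from the frontal cortex of 18 mice were sequenced by the authors, and the reads were trimmed with Trimmomatic 0.33, aligned with HISAT2 2.1.0 to GRCm38 (mm10; the submitters' notes also list mm9) and counted per gene with featureCounts, for which neither the sources used here nor the labels give the version, strand setting or annotation. The deposited values are raw counts without normalization. In 17 mice (without WT mouse 19622), 17414 genes passed filterByExpr (minimum count 10) and were tested with edgeR 4.0.16 (TMM, quasi-likelihood F test, genotype and sex, Benjamini-Hochberg threshold 0.05, in R 4.3.3). The fit was tested on simulated data. Levels are TMM-scaled counts per library total (CPM), and divided by the exon length of GENCODE M21 where genes are compared. Promoter sequences are from RefSeq (GRCm38.p6). Correlations used residual log2 CPM (prior count 2). Separate animals are the replicates, with replicate numbers in accession order.

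The 9 genes and all gene lists were chosen with earlier results of these data known. The named genes are the 9, a fixed set of oligodendrocyte, precursor and label-check genes, any other oligodendrocyte gene called, and the 10 genes most like the 9, of which some are not reported here. The fits were repeated with DESeq2 1.42.0, with voom weights in limma 3.58.1, and with RLE scaling, no filter, a stricter filter (1 CPM in 5 mice), no sex term, the RIN as a term, the 14 mice whose RIN was 8 or more, only the genotypes compared, mouse 19622 in the fit, and each mouse left out.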

Additional observations from a re-analysis of the deposited data

Results flagged for a closer look

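A mouse far from the others of its group was looked for with Dixon's ratio, the gap to the nearest mouse over the range of the group, for each of the 9 genes in each genotype. Of 27 such groups in the 17 mice, 1 was flagged, where chance flags about 1 in 20. Mobp in APP/PS1/FTnKO mouse 16974 (1294 CPM, RIN 7.6) stood apart from the other 5 with a ratio of 0.740. Without this mouse the difference of Mobp from APP/PS1 mice was 0.030 in place of 0.19 (log2), and edgeR called it in neither fit.

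With WT mouse 19622 among the 6 WT mice, 6 of 9 groups were flagged, each with this mouse as the highest. The ratios were 0.756 for Mbp, 0.645 for Mog, 0.667 for Mag, 0.722 for Mobp, 0.796 for Ugt8a and 0.841 for Ermn. These genes are correlated, so the flags are not independent.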

How the results depend on the processing

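No paired analysis was possible because the replicate numbers follow accession order and the labels name no litter that would tie mice across genotypes. None of the 9 genes was called in any genotype comparison or between the sexes under any alternative run, and in the sex-by-genotype interaction 1 was, without the filter. Other oligodendrocyte genes numbered 1 called with DESeq2 (APP/PS1/FTnKO against WT) and 1 with the RIN in the fit (APP/PS1/FTnKO against APP/PS1, Olig2 at 0.42), and 0 under the other alternatives. Calls over all genes moved by more than 1.5 times under several settings. For APP/PS1 against WT they were 261, with 468 by DESeq2, 84 with the RIN, 120 in the 14 mice whose RIN was 8 or more, 452 without the filter and 124 (without WT replicate 2) to 465 (without APP/PS1 replicate 6) with each mouse left out. For APP/PS1/FTnKO against APP/PS1 they were 57, with 253 by DESeq2, 261 with the RIN, 2 with mouse 19622, 14 at a RIN of at least 8, 104 without the filter, 5 with only the genotypes compared and 10 (without APP/PS1 replicate 3) to 81 (without APP/PS1 replicate 1) with each mouse left out. For APP/PS1/FTnKO against WT they were 674, with 1321 by DESeq2, 388 with the RIN, 261 with mouse 19622, 368 at a RIN of at least 8 and 206 (without WT replicate 2) to 987 (without APP/PS1/FTnKO replicate 3) with each mouse left out. The pairs of genes past the threshold were 31 of 36, 28 with all 18 mice, 31 with a prior count of 1 and 33 with the genotype and sex means kept. The log2 fold changes that turned sign were not called in any fit, and the cause was not tested. With the RIN in the fit, the sign turned for APP/PS1 vs WT Mbp -0.27, Mog -0.35, Mobp -0.22, Cldn11 -0.14, Myrf -0.16, Sox10 -0.21, Olig2 -0.25, Fa2h -0.15, Aspa -0.27, Trf -0.046 and for APP/PS1/FTnKO vs APP/PS1 Mog 0.087, Cldn11 0.034, Sox10 0.11, Aspa 0.13, Trf 0.029 and for APP/PS1/FTnKO vs WT Mbp -0.022, Mag -0.12, Cldn11 -0.11, Ermn -0.11, Sox10 -0.10, Fa2h -0.085, Aspa -0.15, Hapln2 -0.034, Trf -0.017. With mouse 19622 in the fit, the sign turned for APP/PS1 vs WT Mbp -0.16, Mog -0.17, Mobp -0.063, Opalin 0.038, Myrf -0.16, Fa2h -0.25, Aspa -0.063, Trf -0.11 and for APP/PS1/FTnKO vs WT Mbp -0.035, Mag -0.16, Ermn -0.27, Myrf -0.027, Fa2h -0.24, Aspa -0.072, Hapln2 -0.049, Trf -0.17. In the 14 mice whose RIN was 8 or more, the sign turned for APP/PS1 vs WT Mbp -0.088, Mog -0.17, Mobp -0.0045, Myrf -0.094, Sox10 -0.14, Olig2 -0.059, Fa2h -0.061, Aspa -0.13 and for APP/PS1/FTnKO vs APP/PS1 Sox10 0.086, Fa2h -0.010, Aspa 0.038 and for APP/PS1/FTnKO vs WT Mag -0.088, Cldn11 -0.066, Ermn -0.086, Sox10 -0.054, Fa2h -0.072, Aspa -0.095. With limma-voom, the sign turned for APP/PS1 vs WT Opalin 0.0037 and for APP/PS1/FTnKO vs APP/PS1 Fa2h -0.0067 and for APP/PS1/FTnKO vs WT Ermn -0.011. Without the sex term, the sign turned for APP/PS1 vs WT Ermn 0.017, Opalin 0.012, Mal 0.0052 and for APP/PS1/FTnKO vs APP/PS1 Cnp -0.0026, Fa2h -0.0064, Mal -0.022. With only the genotypes compared in the fit, the sign turned for APP/PS1 vs WT Mog -0.010, Myrf -0.011, Fa2h -0.0034. With DESeq2 size factors in edgeR, the sign turned for APP/PS1/FTnKO vs APP/PS1 Fa2h -0.00055, Mal -0.0013. Without the filter, the sign turned for APP/PS1 vs WT Ermn 0.00057. With the stricter filter, the sign turned for APP/PS1 vs WT Ermn 0.0029. Leaving out each mouse in turn turned signs within these ranges: APP/PS1 vs WT Mog -0.10 to 0.12, Myrf -0.080 to 0.086, Fa2h -0.074 to 0.10, Ermn -0.093 to 0.093, Sox10 -0.026 to 0.19, Opalin -0.12 to 0.17, Hapln2 -0.15 to 0.10, Mag -0.11 to 0.054, Cnp -0.11 to 0.071, Mal -0.13 to 0.11, Aspa -0.019 to 0.18 and APP/PS1/FTnKO vs APP/PS1 Mbp -0.036 to 0.18, Mag -0.049 to 0.089, Cnp -0.094 to 0.081, Ermn -0.086 to 0.10, Fa2h -0.077 to 0.058, Mal -0.065 to 0.092, Aspa -0.17 to 0.093, Sox10 -0.12 to 0.081, Mog -0.21 to 0.061, Ugt8a -0.15 to 0.047 and APP/PS1/FTnKO vs WT Mag -0.086 to 0.077, Cldn11 -0.068 to 0.24, Ermn -0.095 to 0.076, Sox10 -0.047 to 0.13, Fa2h -0.077 to 0.10, Aspa -0.097 to 0.16, Mog -0.21 to 0.070, Cnp -0.14 to 0.088, Mal -0.12 to 0.12. The 95% intervals of the 9 genes differ in width, and their outer ends over the 3 genotype comparisons were folds of 0.715 and 1.67. RIN and genotype overlap in part, since no WT mouse had a RIN below 8.5, and whole tissue gives no value per cell.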

Other observations

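Markers of other cells in the cortex, read in the same fits, give the surroundings of these genes. In APP/PS1 against WT mice 3 of 6 microglia markers and 6 of 6 markers of plaque-associated microglia rose (edgeR), and in APP/PS1/FTnKO against WT mice 1 of 6 and 6 of 6, while 0 of 6 interneuron and 0 of 6 endothelial markers were called in either. In APP/PS1/FTnKO against APP/PS1 mice 0 of the microglia and 0 of the plaque-associated microglia markers were called, with all 12 lower. Of 5 Schwann cell markers, which would show peripheral nerve, 3 passed the filter and 0 were called.

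Markers of neighbouring brain regions varied between mice with the 9 genes, as a description over 17 mice. The median r with their mean residual was 0.54 for 7 striatal markers, 0.45 for 5 thalamic markers, 0.43 for the 5 cerebellar markers that passed the filter and 0.14 for the 4 olfactory bulb markers that did, beside 0.016 for all genes. None of these lists had a gene called in a genotype comparison. The 6 hindbrain Hox genes did not pass the filter in the 17 mice.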
